A study of Mus musculus with 472 samples.

Results

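Compared here are 58 mouse retinal ganglion cells with much RNA relative to a spike-in and 58 with little, which together make up 49.6% of the cells whose library names carry the most frequent flow-cell code and 24.6% of all cells of the series. The cells came from retinas of C57BL/6J mice aged 7 to 9 weeks that were mounted flat, and the labels give no genotype, treatment or animal. Each ganglion cell was patched, its responses to blue and green light spots were recorded, and its content was drawn into the pipette and turned into a Smart-seq2 library. Because no animal is named, all cells count as 1 sample here, so the comparisons below are descriptions of these cells without tests, the SDs are spreads over cells, and the intervals on shares (Clopper-Pearson, 95%) cover counting error only.

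The members were chosen by a measured value. ERCC transcripts are synthetic RNAs added to a lysate, and for a fixed added amount the counts of cellular genes divided by the counts of ERCC transcripts rise with the RNA that the cell contributed. The sources used here do not give the amount added to a cell, so a library that received less spike-in and a cell that gave more RNA cannot be told apart, nor can a larger cell and a fuller aspiration. The ratio ranged from 217.27 to 4602.19 with a median of 361.8 in the 58 cells of highest ratio on that flow cell, called high-ratio cells below, and from 6.74 to 52.91 with a median of 34.3 in the 58 low-ratio cells. The nearest cells left out stood at 216.45 and 52.997, and the cells between the groups were split at their median into 59 and 59, so that there are 4 rank groups of the ratio. Total gene counts differed far less than the ratio, with medians of 5485040 in high-ratio and 4361560 in low-ratio cells, and ERCC transcripts took a median of 0.276% and 2.84% of all counts.

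Retinal ganglion cells are the output neurons of the retina: they collect signals from bipolar and amacrine cells and send long axons to the brain. They fall into many types that differ in soma size, dendritic form and light response, and the alpha types have the largest somata. Their RNA is rich in transcripts for neurofilaments, synaptic vesicle proteins and glycolytic enzymes, and a patch pipette that crosses the tissue can also pick up RNA from neighbouring cells, photoreceptors among them.

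The ratio was not spread evenly over the libraries. When the libraries of the flow cell were put in the sequence of the order number in their names and cut into 6 blocks of 39, the high-ratio cells numbered 22, 0, 2, 5, 8 and 21 per block and the low-ratio cells 4, 18, 17, 11, 6 and 2. The median ERCC count went from 12967 in the first block to 87374 in the third and back to 24986 in the sixth, while the median gene count stayed between 4009580 and 6080950. One RNA changed abruptly along the same sequence. Rn7s1, a 7SL RNA that forms the core of the signal recognition particle, lay between 1.52 and 23.6 CPM (counts scaled to a total of 1000000 gene counts per cell, ERCC left out) in the first 69 libraries and between 157.9 and 33749 CPM in every one that followed. The share of counts at 2 nuclear ribosomal RNA loci was a median of 30.8% before and 10.3% after that point. What the order number stands for is not stated in the labels. Results are therefore given beside the same comparison with the 9 highest and 9 lowest cells of every block (54 against 54 cells), which was chosen after these values were seen and is called the within-block comparison. Of the 58 high-ratio cells 33 were also high within their block, and of the low-ratio cells 39 were low.

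**Figure D1:**
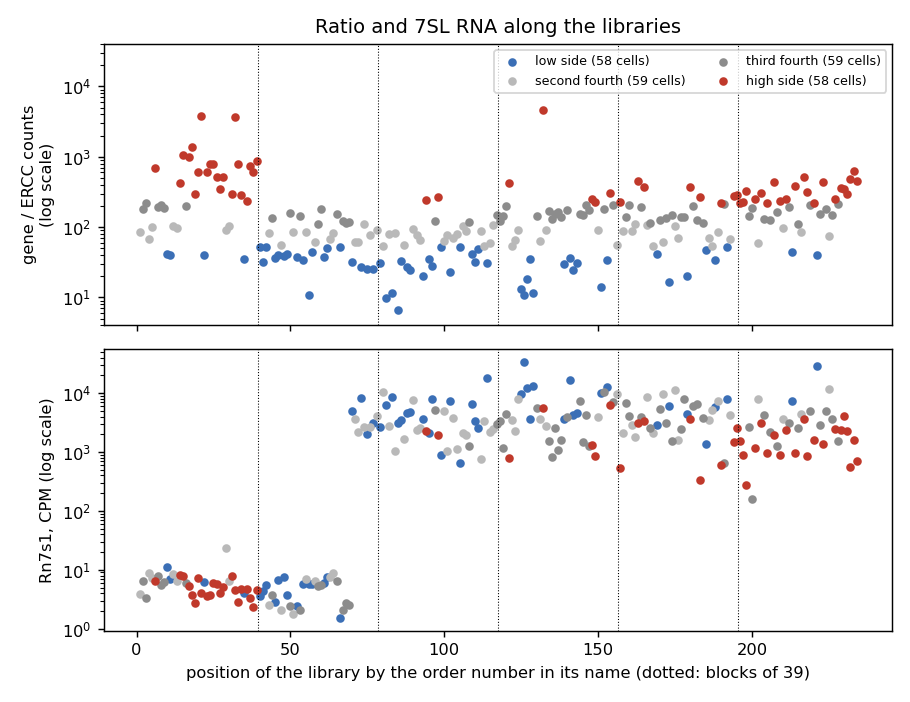
Ratio of gene to ERCC counts (top) and Rn7s1 in CPM (bottom), both on log scales, for the libraries by position in the order of their names, coloured by rank group of the ratio, with dotted lines between the 6 blocks. High-ratio cells gather in the first and sixth blocks, and Rn7s1 steps from under 24 CPM to over 150 CPM after position 69.

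High-ratio cells held more detected genes. Genes at 10 CPM or more, called positive, numbered from 2340 to 8357 per high-ratio cell with a median of 6670, and from 1137 to 6248 per low-ratio cell with a median of 4173. The ranges overlapped, but 39 of 58 high-ratio cells exceeded every low-ratio cell, and 20 low-ratio cells against 1 high-ratio cell had fewer than 3000 positive genes. The 2 rank groups between had medians of 5539 and 6449, so most of the rise lay below the median ratio. Spearman's rho between ratio and positive genes was 0.60 over all cells of this flow cell. Thinning every cell to 1000000 gene counts left the medians at 6703 and 4190. Within blocks the medians were 7122 and 3744.5, and the high cells led in each of the 6 blocks.

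The additional genes were those of low level. A median of 1660.5 genes lay between 10 and 30 CPM in a high-ratio cell against 709 in a low-ratio cell, and 2940 against 1401 lay between 30 and 100 CPM. From 300 CPM upward the order turned, with 456.5 genes against 612.5. Counted at 100 CPM or more, high-ratio cells had 2116.5 and low-ratio cells 1992.5 positive genes. The 1000 most abundant genes of a cell took a median of 61.97% of its gene counts in high-ratio and 75.9% in low-ratio cells.

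**Figure D2:**
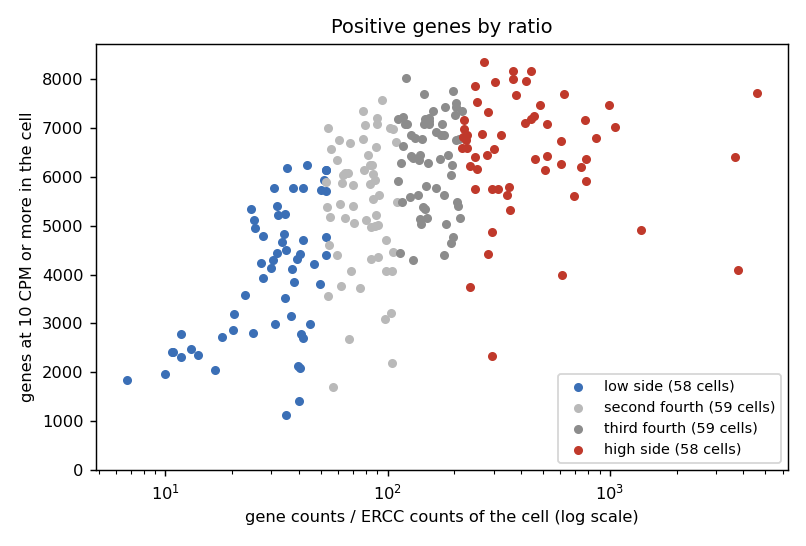
Genes at 10 CPM or more per cell against the ratio of gene to ERCC counts (log scale), coloured by rank group. The medians are 4173, 5539, 6449 and 6670 from the lowest to the highest group, and cells under 3000 positive genes lie mostly at low ratio.

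Across genes the mean level changed little while the share of positive cells changed broadly. Of 9434 genes with a pooled mean of 10 CPM or more that were positive in 10% or more of the pooled cells of both groups, 659 (6.99%) had a mean CPM 2-fold or more higher in high-ratio cells and 492 (5.22%) a mean 2-fold or more lower, and the median fold was 1.04. The median gene was positive in 62.1% of high-ratio cells and in 32.8% of low-ratio cells, and 97.5% of the genes were positive in more high-ratio than low-ratio cells. In the cells where a gene was positive its mean level was higher on the low-ratio side for 92.3% of genes, with a median over genes of 125.8 CPM against 65.6 CPM in high-ratio cells. Relative to their own totals, low-ratio cells thus carried fewer genes at higher CPM, which does not give amounts of RNA. Because the means were near alike, this follows from the shares of positive cells and is not a separate result. The median CPM and the share of positive cells moved with the mean for 567 of the higher genes (6.01% of genes compared) and for 12 of the lower genes (0.127%). Because 97.5% of genes were positive in more high-ratio cells, the share condition favours higher genes. This contrast is therefore not a separate result either. Of the 492 lower genes, 76.4% were positive in more high-ratio cells, and a single cell held a median of 27.8% of their summed CPM in the low-ratio group.

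The balance of calls rested on the scale. With the 3 highest and 3 lowest cells of each group left out per gene, 2231 genes (23.6%) were 2-fold higher and 1.75% lower, and 98.6% of the 659 and 30.9% of the 492 genes were among them. On the difference of mean log2(CPM + 1), which weighs detection, 6359 genes were higher and 5 lower, and the median over all genes compared was 1.302 in log2 against 0.05 by mean CPM. With ribosomal RNA loci and mitochondrial genes left out of the CPM total, 5.84% of genes were higher and 6.496% lower. Within blocks the counts by mean CPM were 715 and 597, with 659 and 6 where median and share moved too, and 56.8% of the 659 higher and 56.7% of the 492 lower genes were called there again. Without the first 69 libraries they were 1012 and 619.

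**Figure D3:**
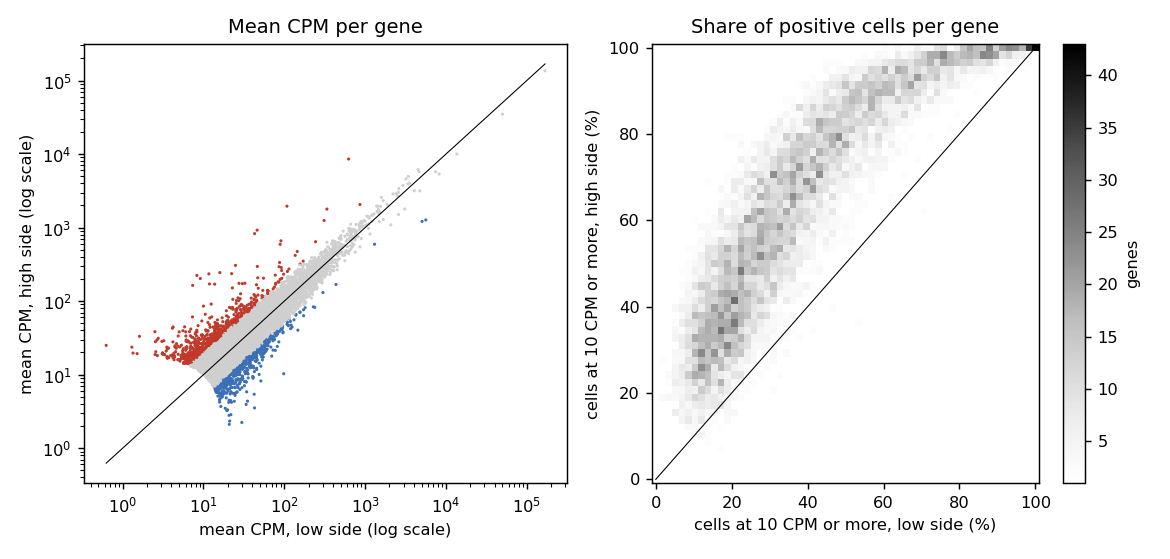
Left, mean CPM per gene in low-ratio (x) and high-ratio (y) cells on log scales, with the 659 genes 2-fold higher in red and the 492 lower in blue; right, number of genes by share of positive cells in each group. Means scatter about the diagonal, while shares lie above it for 97.5% of genes.

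Glycolytic enzymes, which turn glucose into pyruvate and lactate, had higher means as a group by a modest amount, though not against all genes on every scale. Of the 14 compared, 13 had a higher mean in high-ratio cells, none reached 2-fold (background 6.99%), and the median fold was 1.33 against 1.04 over all genes. Summed over the list, the median was 28268 CPM in high-ratio and 18263 CPM in low-ratio cells, with 23510 and 28552 CPM in the rank groups between. Ldha, which makes the lactate dehydrogenase A subunit, ranged from 396.1 to 2467 CPM with a median of 1097 in high-ratio cells and from 0.906 to 2630 CPM with a median of 535 in low-ratio cells. The ranges overlapped almost wholly, but no high-ratio cell was under 396.1 CPM. Its means were 1111 ± 451.8 and 664 ± 505 CPM (SD, n = 58 cells each), a fold of 1.67, and 1.67 within blocks.

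Aldoc, the aldolase of brain and retina, had medians of 2044 and 1293 CPM and a fold of 1.62, or 1.501 within blocks. Hk1, the hexokinase that traps glucose in neurons, had the largest fold of the list at 1.76 and was positive in 54 high-ratio and 41 low-ratio cells. Pkm (1.44), Gpi1 (1.41), Eno1 (1.36), Pgam1 (1.36), Pfkm (1.31), Pgk1 (1.31), Gapdh (1.28), Tpi1 (1.26), Eno2 (1.21) and Ldhb (1.16) followed by fold of mean CPM. Pfkp, a phosphofructokinase subunit, was the exception with a fold of 0.971. Within blocks 13 of 14 were again higher, with a median fold of 1.36. The lead over all genes compared depended on the scale. With the 3 highest and 3 lowest cells of each group left out, the list median was 1.39 against 1.35 over all genes. In cells with 3 or more alpha ganglion cell markers it was 1.08 against 1.07. On the log2(CPM + 1) scale, as powers of 2, it was 1.67 and lay below the 2.47 of all genes.

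Other neuronal groups moved less. The synaptic vesicle list had a median fold of 1.20 with 11 of 12 members higher and none called (6.99% of genes were). On the log2(CPM + 1) scale, as powers of 2, its median was 1.69 against 2.47 over all genes. Snap25, a core protein of vesicle fusion, had means of 5746 ± 2638 and 4642 ± 2201 CPM, Syn2 a fold of 1.46 and Vamp2 1.35, while Vamp1 stood at 0.764. Axonal cytoskeleton genes had a median fold of 1.11 with 12 of 14 higher, and nuclear-encoded respiratory chain genes 1.16 with 12 of 18 higher. Sodium, potassium, calcium and HCN channel genes had a median of 0.881 with 5 of 14 higher and 1 called.

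**Figure D4:**
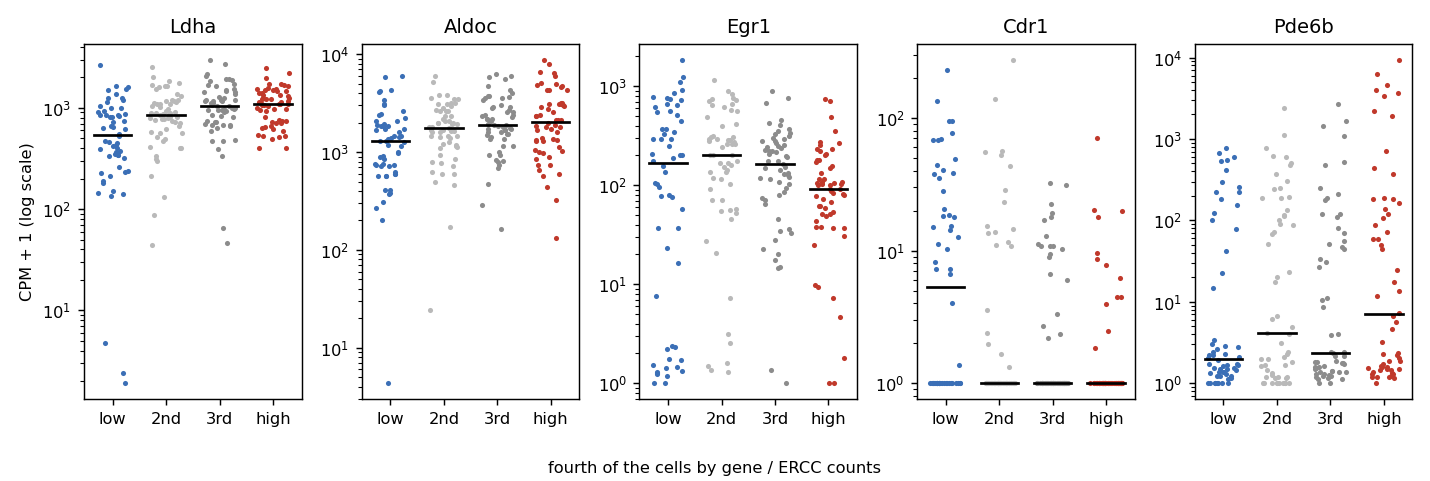
CPM + 1 (log scale) of 5 genes in the cells of each rank group of the ratio, with the median as a bar. Ldha and Aldoc medians rise with the group, Egr1 is lowest in the high-ratio cells, the Cdr1 median is above 0 in the low-ratio cells alone, and Pde6b reaches its highest cells at high ratio.

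Photoreceptor genes were among those of largest fold, and a few cells held most of the summed rod marker level. Rods detect dim light through a cascade of transducin, phosphodiesterase and a cation channel, and ganglion cells are not known to use these genes. Of the 8 rod markers compared, all had a higher mean in high-ratio cells and 7 were called (6.99% of genes were), with a median fold of 3.94. Pde6b, a catalytic subunit of the rod phosphodiesterase, ranged from 0 to 9280 CPM with a median of 6.00 in high-ratio cells and from 0 to 777 CPM with a median of 1.01 in low-ratio cells. Its means were 661 ± 1732 and 90.9 ± 188.3 CPM, a fold of 7.28. Most cells of both groups thus held next to none, and the highest cells were high-ratio cells.

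Sag, the rod arrestin, had means of 1248 ± 3097 and 310.8 ± 616 CPM, and Gnat1, the rod transducin alpha subunit, a fold of 5.31. Nrl, the transcription factor of rod identity, stood at 3.86, Cnga1, a subunit of the rod channel, at 3.66 and Pdc, phosducin, at 3.27. Gngt1, the transducin gamma subunit, was not called, with a fold of 1.63 and 32 positive cells in each group. Some of the largest folds came from genes that were under 10 CPM in low-ratio cells and reached the filter through the high-ratio cells, so they had to differ and are given as a description. Cdhr1 had a low-ratio mean of 8.28 CPM with 3 positive cells, Mfge8 7.34 CPM with 4 and Gpsm2 2.51 CPM with 3. Among the 12 genes of largest fold were Cdhr1 (27.02), Mfge8 (22.3), Rom1 (20.02), Rbp3 (19.3), Prph2 (18.1), Drd4 (15.3), Gpsm2 (15.3), Pde6a (12.4), Slc24a1 (12.3) and Sema4f (11.3). In Drd4 a single cell at 11279.6 CPM gave 79.6% of the high-ratio sum, positive cells numbered 11 and 8, and the trimmed fold was 4.79. Cdhr1, Rom1 and Prph2 encode proteins of the photoreceptor outer segment, and Rbp3 a retinoid carrier of the matrix around it.

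Summed rod marker CPM had medians of 401.6 and 290.8 in high-ratio and low-ratio cells, with ranges of 3.6 to 200105 and 1.0 to 17082. The 5 highest cells held 73.9% of the sum in the high-ratio group and 57.4% in the low-ratio group, and 8 against 2 cells were at 10000 CPM or more. None of the 8 markers was without a positive cell in either group. The number of cells with 3 or more rod markers was 39 (67.2%, interval 53.7 to 78.99%) and 32 (55.2%, 41.5 to 68.3%). Within blocks 7 of 8 markers were called again, with a median fold of 4.94. With the 3 highest and 3 lowest cells of each group left out per gene, all 8 stayed above 1. Their median fold was then 5.51, against 1.35 over all genes. This trim leaves out fewer cells than the 5 highest or the 8 at 10000 CPM or more. It therefore cannot tell whether those cells alone carried the difference in mean. On the log2(CPM + 1) scale, as powers of 2, the median of the 8 was 2.25, below the 2.47 of all genes. Of the 4 cone markers compared, 2 were called higher and 1 lower. Gnat2, the cone transducin alpha subunit, had a fold of 4.44, Arr3, the cone arrestin, 0.419 (0.897 within blocks) and Pde6h, a cone phosphodiesterase subunit, 0.847. Gnat2 had a low-ratio mean of 6.31 CPM and Arr3 a high-ratio mean of 6.68 CPM. Each thus reached the filter through the group where it was higher and is given as a description. Opn1sw, the short-wavelength cone opsin, had a fold of 20.1 of which 1 cell gave 85.1% of the high-ratio sum. Whether rod RNA entered with the aspirated content was not tested.

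Promoters of the rod markers were searched for the 6 bases TAATCC on both strands, a core of the sites of photoreceptor homeobox factors. Of 6 rod markers with a RefSeq promoter (250 bases before to 50 after the start, GRCm38.p6), 3 held a match, against 8.14% of all 27025 genes with a promoter. The 3 matches are shown with 20 bases on either side, 5′ to 3′ on the gene's strand, with the match in capitals. Each of the 3 genes had a higher mean in high-ratio cells.
Sag, chr1:87803573-87803618, plus strand: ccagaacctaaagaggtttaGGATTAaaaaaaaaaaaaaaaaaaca
Cnga1, chr5:72642955-72643000, minus strand: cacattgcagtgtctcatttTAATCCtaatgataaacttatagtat
Gngt1, chr6:3993944-3993989, plus strand: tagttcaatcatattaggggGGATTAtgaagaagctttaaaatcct
All 3 lie within the 250 bases before the RefSeq start site. The GENCODE genes of Cnga1 and Gngt1 start further upstream, so by that annotation their matches lie inside the gene. Sag and Cnga1 were called and Gngt1 was not.

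Immediate early genes were lower in mean in high-ratio cells. They encode transcription factors and signalling proteins that neurons induce within minutes of activity or injury. All 11 compared had a lower mean and 5 were called (5.22% of genes were), with a median fold of 0.548. On the log2(CPM + 1) scale 9 of the 11 were higher. As powers of 2 their median there was 1.28, below the 2.47 of all genes. Their summed level had medians of 1600, 1587, 1400 and 912 CPM over the rank groups from lowest to highest ratio, and ranges of 0.9 to 6448 in low-ratio and 241.9 to 4616 in high-ratio cells.

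Egr1, a zinc finger transcription factor, ranged from 0 to 1834 CPM with a median of 165.6 in low-ratio cells and from 0 to 751 CPM with a median of 91.7 in high-ratio cells. Its means were 300.5 ± 376.4 and 130.8 ± 147.6 CPM, a fold of 0.435, and 0.442 within blocks. It was positive in 42 low-ratio and 51 high-ratio cells, and the groups overlapped over the whole high-ratio range. Fos, a partner of the AP-1 factor, had medians of 693 and 424.1 CPM and a fold of 0.617, and Jun a fold of 0.594 with 32 and 47 positive cells. Nr4a1, a nuclear receptor, was at 0.370, Npas4, a factor induced by calcium entry, at 0.445, Arc, a synaptic protein, at 0.294 and Ier2 at 0.422. Dusp1 (0.582), Btg2 (0.548), Fosb (0.776) and Junb (0.753) were lower without a call. Within blocks 10 of 11 remained below 1 and 3 were called, with a median of 0.587, and Ier2 turned to 1.05 and Arc moved to 0.580.

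The cAMP response element TGACGTCA, a palindrome bound by CREB, was found in the promoters of 2 of 11 immediate early genes with an entry, against 2.03% of all genes with one. Both matches are shown in capitals with 20 bases on either side.
Btg2, chr1:134079294-134079341, minus strand: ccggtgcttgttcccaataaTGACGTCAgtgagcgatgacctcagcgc
Dusp1, chr17:26508588-26508635, minus strand: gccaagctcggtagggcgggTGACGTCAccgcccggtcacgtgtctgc
The GENCODE gene of Dusp1 starts further upstream, so by that annotation its match lies inside the gene. Both genes were lower in mean and neither was called.

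The 12 genes that were 2-fold lower in mean with median and share also lower were Cdr1, Agap2, Rn7s2, Rn7s1, Xist, Sparc, Cartpt, Nfia, Satb1, mt-Rnr1, Nlgn2 and Pisd-ps1. Of these, Cdr1, Rn7s1, Rn7s2 and mt-Rnr1 met the same rule within blocks. Agap2, with a high-ratio mean of 8.92 CPM, reached the filter through the low-ratio cells, so it had to differ and is given as a description. Agap2 (0.218), Xist (0.274), Sparc (0.368), Nfia (0.406), Nlgn2 (0.464) and Pisd-ps1 (0.485) had folds of mean CPM with much overlap between groups: Nlgn2, a postsynaptic adhesion protein of inhibitory synapses, was positive in 31 high-ratio and 32 low-ratio cells.

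7SL RNA was the most abundant of the 12. Rn7s1 and Rn7s2 are copies in the mm10 annotation whose transcripts of 300 bases differed at 0 positions, so reads cannot be assigned to either and their counts are uncertain. Over all 58 cells each, Rn7s1 had means of 1214 ± 1464 CPM in high-ratio and 5064 ± 6660 CPM in low-ratio cells, a fold of 0.240. In the libraries after position 69, 36 high-ratio cells ranged from 273.99 to 6279 CPM with a median of 1560, and 40 low-ratio cells from 652 to 33749 CPM with a median of 4878. In the 69 libraries before it the medians were 4.65 CPM in 22 high-ratio and 5.75 CPM in 18 low-ratio cells. The difference was thus seen among libraries that had 7SL reads, and the within-block fold was 0.337.

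Cdr1 (chrX:61184005-61185558, minus strand) had the smallest fold of the 12, 0.131. With a high-ratio mean of 2.85 CPM, Cdr1 reached the filter through the low-ratio cells, so it had to differ and is given as a description. It was positive in 24 low-ratio cells (41.4%, interval 28.6 to 55.1%) and in 4 high-ratio cells (6.90%, 1.91 to 16.7%), against a median gene at 32.8% and 62.1%. Low-ratio cells ranged from 0 to 229.35 CPM with a median of 4.304, and high-ratio cells from 0 to 69.9 CPM with a median of 0. The within-block fold was 0.139. Other runs are groups of cells by flow-cell or order code, described at the end. In 3 of them, split by their own ratio, the Cdr1 folds were 0.517, 0.0097 and 1.83, so the direction turned in the last. The 2 rank groups between both had a median of 0, and the highest Cdr1 level of all, 271.04 CPM, lay in the lower of them.

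The Cdr1 locus is known for a circular RNA transcribed from its other strand that binds the microRNA miR-7, and the library protocol does not mark strand, so reads of the sense and antisense RNA cannot be told apart. The annotated Cdr1 transcript of 1554 bases held GGAAGAC, the seed of miR-7a-5p (bases 2 to 8), 79 times, which places the complementary target sequence on the antisense RNA. The first 180 bases of the GENCODE M21 transcript are shown with the matches in capitals, beside the RefSeq microRNA with its seed in capitals.
Cdr1, bases 1 to 180: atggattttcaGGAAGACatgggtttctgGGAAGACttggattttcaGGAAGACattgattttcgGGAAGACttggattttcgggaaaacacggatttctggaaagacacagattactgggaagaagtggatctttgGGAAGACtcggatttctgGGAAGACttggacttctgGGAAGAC
mmu-miR-7a-5p: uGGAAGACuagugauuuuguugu
Ribosomal RNA of mitochondria was also lower: mt-Rnr1 had means of 594 ± 1168 and 1307 ± 4478 CPM, a fold of 0.454 and of 0.467 within blocks, and mt-Rnr2 a fold of 0.580. In mt-Rnr1 a single cell at 32467 CPM gave 42.8% of the low-ratio sum.

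Markers of ganglion cells were present on both sides. All 58 cells of each group held 3 or more of the 12 pan-ganglion-cell genes, whose median fold was 1.10. Slc17a6, which loads glutamate into synaptic vesicles, had means of 668 ± 434.6 and 652 ± 529 CPM, Rbpms a fold of 0.966 and Nefl, the light neurofilament, 1.13. Tubb3, a neuronal tubulin, stood at 1.49, and Thy1, a surface glycoprotein, at 0.700. The transcription factor Pou4f3 was the 1 called gene of the list, with a fold of 2.12 and 18 against 5 positive cells. That is 1 of 12 members, near the background of 6.99% of genes.

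Markers of alpha ganglion cells were positive in more high-ratio cells, as were 97.5% of all genes compared, without a higher mean level. In 43 high-ratio cells (74.1%, interval 60.96 to 84.7%) and 29 low-ratio cells (50%, 36.6 to 63.4%) 3 or more of 5 markers were positive, and within blocks the shares were 77.8% and 53.7%. At 100 CPM, where positive genes per cell were close, the shares were 46.6% and 32.8%. The median fold of the 5 was 0.995. Scn4b, a sodium channel beta subunit, was called at 2.06 and was 1.64 within blocks. Spp1, which encodes osteopontin, had a fold of 1.23 with 38 and 30 positive cells, Kcng4, a silent potassium channel subunit, 0.995 with 33 and 15, Pvalb, parvalbumin, 0.807 and Nefh, the heavy neurofilament, 0.967.

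Markers of direction-selective types were lower in mean: all 3 compared were called (5.22% of genes were). Cartpt, a neuropeptide precursor, ranged from 0 to 5351 CPM with a median of 53.6 in low-ratio and from 0 to 1669 CPM with a median of 14.5 in high-ratio cells, a fold of 0.387. Cdh6, a cadherin, stood at 0.355 and Col25a1 at 0.280. The Cdh6 median was higher in high-ratio cells, 2.93 against 0.281 CPM, with 22 and 21 positive cells. Col25a1 had a high-ratio mean of 7.97 CPM and reached the filter through the low-ratio cells, so it had to differ. Within blocks the 3 folds were 0.616, 0.573 and 0.556 and none was called. Cells with 3 or more of the 4 listed markers made up 8.62% of high-ratio and 13.8% of low-ratio cells. Within blocks these shares turned to 16.7% and 9.26%. In the 3 other runs the list had median folds of 0.388, 0.343 and 5.17. Of the 3 melanopsin cell markers compared 1 was called (6.99% of genes were). Opn4, melanopsin, had a fold of 3.09 with 10 and 3 positive cells, 3.14 within blocks and 0.0764 in the first of the other runs. The 3 low-ratio cells lie under the 10% limit of the filter, so Opn4 reached it through the high-ratio cells and is given as a description. Igf1, a growth factor, stood at 1.20 (0.973 within blocks) and Adcyap1, a neuropeptide, at 0.640 (0.359). Of 4 ganglion cell class factors compared 1 was called higher and 2 lower: the transcription factor Tbr1 had a fold of 2.54, the chromatin factor Satb1 0.413 and the zinc finger protein Bnc2 0.443, which within blocks were 1.58, 0.802 and 0.666, and Tfap2d stood at 0.866.

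**Figure D5:**
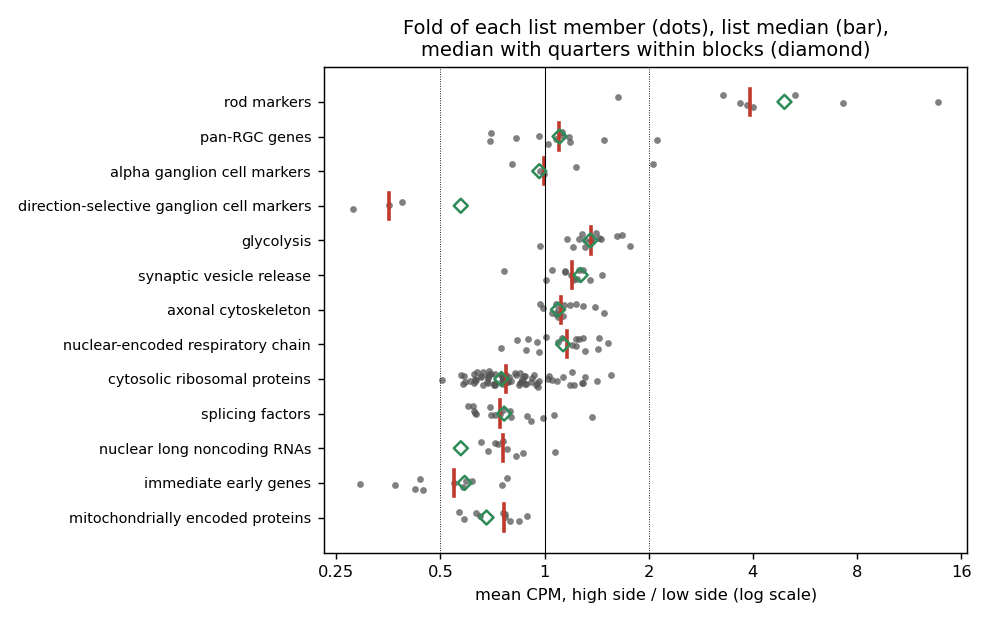
Ratio of mean CPM in high-ratio over low-ratio cells (log scale) for each compared member of 13 lists, with the list median as a red bar and the median within blocks as a green diamond; dotted lines mark 2-fold. Rod markers lie highest (median 3.94), glycolysis is at 1.33, and immediate early genes are at 0.548.

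RNAs that stay in the nucleus and factors that splice RNA leaned to low-ratio cells by mean, as did ribosomal protein genes, but each of these directions turned on the log2(CPM + 1) scale, where the median of all genes is 1.302 above 0. Of 9 nuclear long noncoding RNAs compared, 8 had a lower mean, none was called (5.22% of genes were) and the median fold was 0.756, or 0.573 within blocks. On the log2 scale all 9 were higher. Malat1, which gathers in nuclear speckles, had means of 10010 ± 8057 CPM in high-ratio and 13667 ± 14049 CPM in low-ratio cells. Snhg11 had a fold of 0.653, Meg3, an imprinted RNA, 0.781, Kcnq1ot1 0.756, and Peg13 alone was above 1 at 1.07.

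Splicing factors had 15 of 17 members lower with a median of 0.744, and 16 of 17 higher on the log2 scale. Srsf11, Clk1, a kinase of splicing factors, and Ddx17, an RNA helicase, were at 0.602, 0.621 and 0.624, and Srsf3 at 1.38. Of 76 cytosolic ribosomal protein genes compared 63 were lower, the median fold was 0.774 and none was called, with 64 of 76 higher on the log2 scale. They ran from Rpl22l1 at 0.506 and Rpl32 at 0.574 to Rpl3 at 1.29 and Rpl4 at 1.41, and reads of these families can be shared with pseudogenes. Translation factors had a median of 1.18 with 9 of 11 higher.

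Cells outside this flow cell, which the choice of members did not use, were grouped by the flow-cell code in the library name. Where a name has no such code, an order code in it was used. These groups are called runs, and the labels do not say that each was 1 sequencing run. In 3 of them cells were split in the same way by their own ratio, into 24 against 24, 15 against 15 and 14 against 14. A further run of 19 cells was not analysed here. Positive genes again differed, with medians of 6394 and 2830, 6807 and 3297, and 5729.5 and 1164.5. Of genes called higher above, 73.7%, 67.9% and 76.6% had a fold above 1 in the 3 runs, against 62.5%, 52.4% and 71.04% of all genes compared. Of genes called lower, 53.6%, 54.3% and 37.2% were below 1, against 37.5%, 47.6% and 28.96%. The median fold over all genes compared was 1.26, 1.06 and 2.44 in the 3 runs. Glycolysis had median folds of 1.57, 1.61 and 2.21 with 12, 12 and 13 of 14 members above 1. In the last run it thus lay below the median of all genes. Rod markers had median folds of 2.60, 12.7 and 7.59. Immediate early genes stood at 0.524, 0.707 and 0.577. Splicing factors and nuclear noncoding RNAs did not keep one direction: their medians were 0.615, 0.452 and 2.30, and 0.376, 0.429 and 3.19. Beside the 2.44 of all genes in the last run, splicing factors were still lower and nuclear noncoding RNAs higher.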

How the data were processed

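The deposited matrix gives per gene and cell the authors' estimated counts, which need not be whole, and a key file pairs cells with library names. STAR 2.7.0 and the mm10 build appear in the submitters' processing notes, which name neither a counting tool nor an annotation (not given in the sources used here). Cells of the most frequent flow-cell code, all on lane 3, were ranked by summed gene over summed ERCC counts. Counts were rounded and scaled to CPM over gene columns. Genes were compared at a pooled mean of 10 CPM and 10% positive cells, and called at 2-fold in mean CPM. Genes named were every member of a list with at most 15 genes, from longer lists the 4 highest and 3 lowest folds, and the 12 highest and 12 lowest folds among calls in which median and share moved too. Some genes that meet this rule are not reported here. Members and lists were chosen with earlier results of these data known. Gene positions are from GENCODE M21, and 108 genes sharing a symbol, Aldoa among them, were not compared by list. The comparison was tested on simulated data. Python 3.11.15, numpy 2.4.6, pandas 2.3.3 and scipy 1.17.1 were used.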

Additional observations from a re-analysis of the deposited data

How the results depend on the processing

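3 alternatives were added after the values were seen: the within-block comparison, cells with under 30% ribosomal RNA loci, and the libraries after position 69. Against 6.99% of genes higher and 5.22% lower (6.01% and 0.127% with median and share), the values that moved by more than 1.5 times in count were these. With 78 against 78 cells, 3.69% were higher and 3.02% and 0.0630% higher and lower with median and share. With ribosomal RNA loci out of the ratio 0.0213% were lower with median and share. Cells with fewer than 3 rod markers (19 against 26) gave 10.9% and 13.1%, and 1.58% lower with median and share. Cells with 3 or more alpha markers (43 against 29) gave 12.4% higher, and 11.3% with median and share. The trimmed mean gave 23.6% and 1.75%, and 20.5% higher with median and share. The log2(CPM + 1) scale gave 67.4% and 0.0530%, and 65.95% and 0.0530% with median and share. No filter with 1 CPM added gave 7.81% and 6.94% of 24507 genes. Within blocks 0.0631% were lower with median and share. With under 30% ribosomal RNA loci 7.81% were lower, 0.311% with median and share. After position 69, 10.5% were higher, 9.83% with median and share.

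Positive genes per cell were 8240 in high-ratio cells at 1 CPM, and 2116.5 and 1992.5 in high-ratio and low-ratio cells at 100 CPM. Shares of cells with 3 or more alpha markers were 93.1% and 70.7% at 1 CPM and 46.6% and 32.8% at 100 CPM, and with 3 or more rod markers 82.8% and 81.03%, then 39.7% and 36.2%. After position 69 the rod share was 80.6% in high-ratio cells. Directions of single genes turned for Npas4 with few rod markers (1.18), Sparc with alpha markers (1.45), Ier2 within blocks (1.05), and on the log2 scale, as powers of 2, for Egr1 (1.12), Npas4 (1.01), Ier2 (1.34), Jun (2.02), Junb (2.60), Kcng4 (3.64), Kcnq1ot1 (2.80) and Srsf11 (2.08). The cause of these turns was not tested, and the median over all genes compared on the log2 scale was 2.47.

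The cells share 1 lane, so groups within lanes equal those used. Thinning kept each count within 1.5 times, as did CPM without ribosomal RNA loci and mitochondrial genes (5.84% and 6.496%). The minimum of 1000 positive genes removed no cell, so it could change nothing. No paired analysis was possible because the labels name no animals and give 1 group. Without molecular identifiers, intervals cover counting error only.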

Other observations

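Among markers of other retinal cells, those of Müller glia were positive in most cells of both groups, while no microglia or erythrocyte marker passed the filter on level. Müller glia, the radial glia of the retina, gave 3 or more of 8 markers in 53 high-ratio cells (91.4%, interval 81.02 to 97.1%) and 43 low-ratio cells (74.1%, 60.96 to 84.7%). Their summed level had medians of 913 and 979 CPM. Bipolar cells gave 3 or more of 7 markers in 17 and 11 cells, and amacrine cells 3 or more of 8 in 23 and 17 cells, within overlapping intervals. The 11 matched genes of axon injury and stress gave 3 or more positive members in 24 high-ratio cells (41.4%, 28.6 to 55.1%) and 9 low-ratio cells (15.5%, 7.35 to 27.4%), with a median fold of mean CPM of 0.785 over the 5 compared. These shares stand beside a median gene positive in 62.1% and 32.8% of cells, and 97.5% of genes compared were positive in more high-ratio cells. The same background applies to the glial, bipolar and amacrine shares.

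ERCC transcripts themselves were detected in fewer kinds where they were fewer. A median of 24 species was seen per high-ratio cell and 33 per low-ratio cell. Over the 58 species seen in both groups, the log10 mean share of each species correlated with a Pearson r of 0.931 across species, which are not independent replicates.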
